A study of Mus musculus with 6 samples.

Results

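Genes of prostaglandin synthesis, breakdown and reception were examined in RNA-seq of mouse embryonic fibroblasts (MEFs), cultured cells of the embryo's connective tissue. They were *Pla2g4a*, *Ptgs1*, *Ptgs2*, *Ptges*, *Ptgis*, *Ptger1*, *Ptger2*, *Ptger4*, *Ptgfr* and *Hpgd*, found by symbol, and the 10 were all among the 17092 genes of the count table. The series compared MEFs of WT mice with MEFs of *Aff3ir-ORF2-/-* mice (the knockout), with 3 libraries of each genotype, and addressed which genes depend on *Aff3ir-ORF2*, a product of a gene nested within *Aff3*. By the study's methods the knockout is global, made with guide RNAs and Cas9 at that locus, and the MEFs were used after several passages in serum-containing medium. The labels give no treatment, flow exposure, age or embryo for any library. Nothing says that the libraries of a genotype came from separate embryos or cultures, so the p-values measure only the spread between these libraries, which may be technical.

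Prostaglandins are short-range lipid signals. Cytosolic phospholipase A2 frees arachidonic acid from membranes, a cyclooxygenase turns it into prostaglandin H2, and terminal synthases make from that the individual prostaglandins, which act on G protein-coupled receptors of nearby cells and are inactivated inside cells by 15-hydroxyprostaglandin dehydrogenase. In fibroblasts the inducible cyclooxygenase, encoded by *Ptgs2*, is known to respond quickly to serum, growth factors and inflammatory signals, and prostaglandin E2 is a well-known product.

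In *Aff3ir-ORF2-/-* MEFs, *Ptgs2* and the EP4 receptor gene *Ptger4* were lower, by 2.18-fold and 3.01-fold in mean normalised counts (counts scaled to library size, CPM). *Ptgs1*, which encodes the constitutive cyclooxygenase, was 1.55-fold higher. *Hpgd*, which encodes the dehydrogenase, and the EP2 receptor gene *Ptger2* were 9.02-fold and 6.0-fold higher from very low WT levels. The EP1 receptor gene *Ptger1* was 1.80-fold higher at a low level. The phospholipase gene *Pla2g4a*, the prostaglandin E synthase gene *Ptges*, the prostacyclin synthase gene *Ptgis* and the prostaglandin F receptor gene *Ptgfr* were not called. The 10 genes therefore gave 4 calls of higher and 2 of lower expression. *Ptger2* and *Hpgd* passed the filter on low counts before the test only through their knockout libraries. This raises the calls of higher and the median over the 10 genes. With at least 10 counts in every library, 8 of the 10 were tested. Of those, 2 were called higher and 2 lower, beside 11.4% and 6.92% of all genes then tested. A call needed an adjusted p under 0.05 and a change of at least 1.5-fold, by edgeR's quasi-likelihood test on rounded estimated counts with Benjamini-Hochberg adjustment over 13075 genes. Over all genes tested, 14.2% were called higher and 7.27% lower, 21.4% in all. At an adjusted p under 0.05 regardless of fold there were 7 of the 10 genes, against 56.8% of all genes tested. The 2 genotypes did not overlap in normalised counts for 7 of the 10, against 66.0% of all genes tested. The median log2 fold change was 0.51 over the 10 genes and 0.0056 over all genes tested.

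The RefSeq promoter sequences of GRCm38.p6 cover 250 bases before to 50 after an annotated start, and 8 of the 10 genes had one. The others were *Ptgis* and *Ptger1*. Those of *Ptgs2* and *Ptger4* are shown because these genes were called lower, and that of *Hpgd* because its log2 fold change was the largest of the 10. Each is written 5′ to 3′ on the gene's strand, and capitals mark matches to the motifs named after them.
Ptgs2 (chr1:150099781-150100080, plus strand): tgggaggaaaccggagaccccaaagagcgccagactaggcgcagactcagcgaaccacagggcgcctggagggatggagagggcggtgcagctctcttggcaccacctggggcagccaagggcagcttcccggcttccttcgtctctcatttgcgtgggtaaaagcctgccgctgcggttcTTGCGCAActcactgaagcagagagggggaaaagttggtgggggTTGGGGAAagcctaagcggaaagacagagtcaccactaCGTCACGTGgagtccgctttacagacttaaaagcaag
Ptger4 (chr15:5244138-5244437, minus strand): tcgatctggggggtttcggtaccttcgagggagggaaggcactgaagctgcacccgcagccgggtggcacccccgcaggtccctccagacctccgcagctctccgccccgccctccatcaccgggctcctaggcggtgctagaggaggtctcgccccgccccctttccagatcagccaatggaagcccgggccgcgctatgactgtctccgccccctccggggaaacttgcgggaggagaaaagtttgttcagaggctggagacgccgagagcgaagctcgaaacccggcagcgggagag
Hpgd (chr8:56294302-56294601, plus strand): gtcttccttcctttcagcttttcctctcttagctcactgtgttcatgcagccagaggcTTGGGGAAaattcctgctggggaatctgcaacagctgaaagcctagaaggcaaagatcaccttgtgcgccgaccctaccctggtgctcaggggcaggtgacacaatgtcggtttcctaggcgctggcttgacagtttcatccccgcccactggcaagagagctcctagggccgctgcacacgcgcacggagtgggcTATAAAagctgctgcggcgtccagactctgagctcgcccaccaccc
The letters searched, on both strands, were CGTCA (core of the cAMP response element), CACGTG (E-box), TTNCNNAA (C/EBP site), TGA and TCA with any base between them (AP-1 site), GCGNGGGCG (EGR site) and the NF-kB site. The TATA box, the core promoter motif where it occurs, was searched as TATAAA. In *Ptgs2*, a cAMP response element core at position 14 after the annotated start shares letters with an E-box at position 17, and matches to the C/EBP letters begin at positions -69 and -25. In *Hpgd*, a match to the TATA box letters begins at position 5, after the annotated start, and a match to the C/EBP letters at position -192. The *Ptger4* sequence held none of the 7 motifs, which says only that these letters are not in that stretch. Of 32851 RefSeq promoter sequences of the same length, 13.6% held the TATA box, 20.8% the cAMP response element core, 7.15% the E-box and 40.7% the C/EBP letters. The shares were 7.81% for the AP-1 site, 5.55% for the EGR site and 4.51% for the NF-kB site. No binding and no start of transcription was measured. Positions hold for the annotated start only, and such matches are descriptions of the letters only.

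Total counts were 17435133 to 17726034 in the WT libraries and 18209421 to 18252330 in the *Aff3ir-ORF2-/-* libraries. The knockout libraries were more unlike one another, with a biological coefficient of variation of 0.0996 against 0.0184 in WT, and 0.0640 without *Aff3ir-ORF2-/-* replicate 2. *Aff3*, the parent gene, had 406, 406 and 418 counts in the WT libraries against 229, 186 and 209 in the knockout libraries, and *Aff3ir* itself was not analysed here. The fibroblast markers summed to 19114 to 19152 CPM in WT and 13131 to 17506 in *Aff3ir-ORF2-/-* libraries, yet of the 9 markers *Pdgfrb* and *Lum* were called higher and 0 were called lower. The 10 macrophage markers summed to 6.81 to 7.56 CPM in WT and 204 to 365 in *Aff3ir-ORF2-/-* libraries. Of these, *C1qa*, *C1qb*, *Fcgr1* and *Aif1* were at 0 in every WT library. The 9 that passed the filter on low counts, all but *Aif1*, were called higher. Markers with few WT counts could pass that filter only through their knockout libraries, so this number is no test of the markers. Smooth muscle markers summed to 4272 to 4372 CPM and 7100 to 7796 CPM, with 4 of 5 called higher. Endothelial markers summed to 7.94 to 8.58 and 14.4 to 20.3 CPM, with 2 of 4 tested higher and 1 lower. Epithelial markers ranged over 22.1 to 22.8 and 12.2 to 24.0 CPM, platelet and megakaryocyte markers over 10.3 to 14.1 and 11.9 to 27.1 CPM, and mast cell markers over 0.341 to 0.400 and 0.381 to 0.823 CPM. In RNA from a whole culture, fewer cells of a type and less RNA per cell cannot be told apart.

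**Figure D1:**
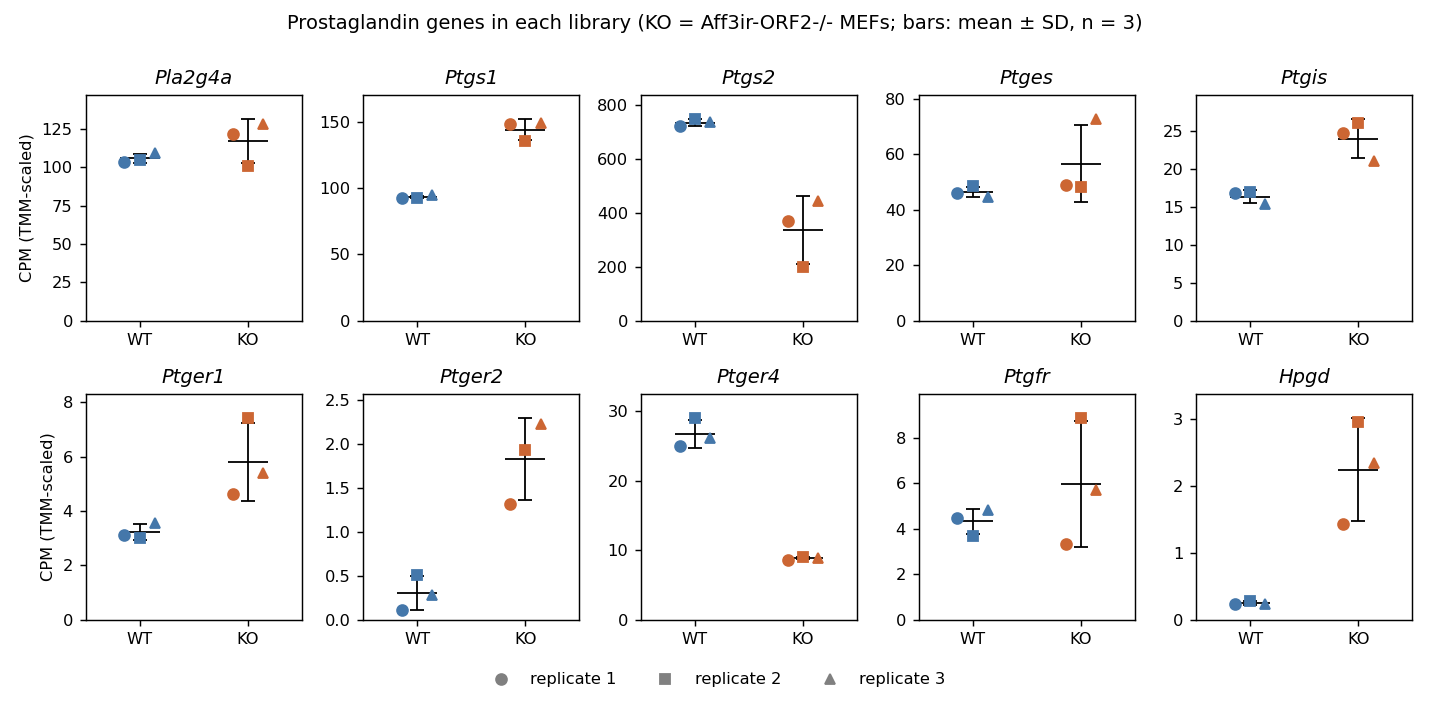
Normalised counts (CPM after TMM scaling, each axis starting at 0) of the 10 genes in 3 WT and 3 *Aff3ir-ORF2-/-* (KO) libraries. Symbols give the replicate, and the bars the mean and SD of 3 libraries. *Ptgs2* lay between 722 and 748 CPM in WT and between 198 and 443 CPM in *Aff3ir-ORF2-/-* libraries, and *Pla2g4a*, *Ptges* and *Ptgfr* overlapped between genotypes.

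*Pla2g4a*, which encodes the phospholipase that supplies arachidonic acid, had 1787, 1839 and 1908 counts in the WT libraries against 2212, 1882 and 2357 in the knockout libraries. The lowest knockout library, replicate 2, lay below all WT libraries in normalised counts, and the others lay above them. Means were 105.8 ± 2.98 CPM in WT and 116.9 ± 14.3 CPM in *Aff3ir-ORF2-/-* (SD, n = 3). Its log2 fold change of 0.14 had a standard error (SE) of 0.08 and a 95% interval from -0.04 to 0.33 (adjusted p = 0.163, edgeR). Without *Aff3ir-ORF2-/-* replicate 2 it was 0.24 with an adjusted p of 1.38e-04 in the edgeR fit, still under 1.5-fold. By RefSeq, *Pla2g4a* and *Ptgs2* are neighbours on chromosome 1, with 2 non-coding genes and no protein-coding gene between them.

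*Ptgs2*, the inducible cyclooxygenase gene, had the highest mean CPM per kilobase of transcript of the 10 in both genotypes. It had 12450, 13161 and 12876 counts in the WT libraries against 6720, 3690 and 8140 in the knockout libraries. Every *Aff3ir-ORF2-/-* library lay below every WT library, and *Aff3ir-ORF2-/-* replicate 2 lay furthest below. Means were 736 ± 13.3 CPM in WT and 337 ± 126 CPM in *Aff3ir-ORF2-/-* (SD, n = 3), which is a coefficient of variation of 1.81% against 37.4%. The log2 fold change was -1.13 (SE 0.29, 95% interval -1.87 to -0.39, adjusted p = 0.0219, edgeR), and 1.76% of all genes tested had a lower one. Without *Aff3ir-ORF2-/-* replicate 2 the log2 fold change was -0.86 (adjusted p = 4.63e-04, edgeR). Leaving out any other library gave an adjusted p from 0.0185 without *Aff3ir-ORF2-/-* replicate 3 to 0.0499 without WT replicate 2 (edgeR). With no filter on low counts the same test gave an adjusted p of 0.0521, which ends the call.

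*Ptgs1*, the constitutive cyclooxygenase gene, moved in the other direction. It had 1602, 1625 and 1651 counts in the WT libraries against 2701, 2519 and 2735 in the knockout libraries, without overlap. Means were 93.2 ± 1.08 and 144 ± 7.79 CPM (SD, n = 3), and the log2 fold change was 0.63 (SE 0.05, adjusted p = 8.71e-06, edgeR). This is close to the 1.5-fold limit, which is dotted in the plot of fold changes. Whether the higher macrophage marker sum had a part in the *Ptgs1* result was not tested.

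*Ptgs2* gave 88.6%, 89.0% and 88.6% of the counts of both cyclooxygenase genes in WT replicates 1, 2 and 3. In *Aff3ir-ORF2-/-* replicates 1, 2 and 3 it gave 71.3%, 59.4% and 74.9%. The 95% Wilson intervals were 88.1% to 89.1% for WT replicate 1 and 58.2% to 60.6% for *Aff3ir-ORF2-/-* replicate 2, and these cover counting error only. The log2 ratio of *Ptgs2* over *Ptgs1* counts within a library, which does not depend on the scaling between libraries, averaged 2.98 ± 0.03 in WT and 1.15 ± 0.53 in *Aff3ir-ORF2-/-* (SD, n = 3). The difference was -1.83, and no library of one genotype overlapped the other (two-sided exact permutation p = 0.1, adjusted p = 0.133 over 4 ratios). With 3 libraries against 3, 0.1 is the smallest p this test can give. These shares and ratios are of counts and are not corrected for the longer transcript of *Ptgs2*.

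*Ptges*, which encodes an inducible synthase of prostaglandin E2, had 793, 854 and 782 counts in the WT libraries against 895, 900 and 1334 in the knockout libraries. The genotypes overlapped, and only *Aff3ir-ORF2-/-* replicate 3 stood clearly above WT, at 72.7 CPM. Means were 46.4 ± 1.95 and 56.7 ± 13.8 CPM (SD, n = 3), with a log2 fold change of 0.29 (95% interval -0.12 to 0.69, adjusted p = 0.187, edgeR). Without *Aff3ir-ORF2-/-* replicate 3 it was 0.067. *Ptgis*, which encodes the synthase of prostacyclin, a vasodilator, had 291, 298 and 268 counts in the WT libraries against 451, 487 and 388 in the knockout libraries, without overlap. Its means were 16.4 ± 0.909 and 24.0 ± 2.58 CPM (SD, n = 3). The log2 fold change of 0.55 (SE 0.09, adjusted p = 6.74e-04, edgeR) passed the p threshold but not 1.5-fold. With upper quartile scaling it was 0.59, and without *Aff3ir-ORF2-/-* replicate 3 it was 0.63, and both settings called it higher. The log2 ratio of *Ptges* over *Ptgis* differed by -0.28 between genotypes, and *Aff3ir-ORF2-/-* replicate 3 lay above all WT libraries while the other knockout libraries lay below them (exact permutation p = 0.4). That difference was -0.17 without *Aff3ir-ORF2-/-* replicate 1, -0.12 without replicate 2 and -0.57 without replicate 3.

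The receptors differed among themselves. *Ptger4*, the gene of the EP4 receptor, which raises cAMP on binding prostaglandin E2, had 432, 510 and 457 counts in the WT libraries against 158, 169 and 164 in the knockout libraries. The knockout libraries were far below WT and close together, at 8.89 ± 0.201 CPM against 26.7 ± 2.04 CPM (SD, n = 3). Its log2 fold change was -1.59 (SE 0.08, 95% interval -1.77 to -1.40, adjusted p = 1.15e-06, edgeR). It had 0.665% of all genes tested below it, and under 15 alternatives it ranged from -1.63 to -1.53.

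*Ptger2*, the gene of the EP2 receptor, which also raises cAMP, had 2, 9 and 5 counts in the WT libraries against 24, 36 and 41 in the knockout libraries. All *Aff3ir-ORF2-/-* libraries lay above all WT libraries, but the WT counts were few. Means were 0.305 ± 0.199 and 1.83 ± 0.467 CPM (SD, n = 3). The log2 fold change was 2.55 (SE 0.42, adjusted p = 6.51e-04, edgeR), and the ratio of summed counts, scaled by library size, was 6.10, with a counting interval of 3.58 to 11.1. *Ptger2* passed the filter on low counts only through its knockout libraries, so this p is no separate support for the change. *Ptger4* had more counts than *Ptger2* in 6 of 6 libraries, and the log2 ratio of *Ptger4* over *Ptger2* counts was 6.52 ± 0.85 in WT and 2.30 ± 0.36 in *Aff3ir-ORF2-/-* (SD, n = 3; difference -4.22, exact permutation p = 0.1, adjusted p = 0.133). With a pseudocount of 2 in place of 0.5 the difference was -3.87. The macrophage marker sum was higher in every *Aff3ir-ORF2-/-* library as well, and its part in the *Ptger2* result was not tested.

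*Ptger1*, the gene of the EP1 receptor, which is linked to calcium signalling, had 54, 53 and 62 counts in the WT libraries against 84, 138 and 99 in the knockout libraries. The *Aff3ir-ORF2-/-* libraries lay above WT and spread widely, at 5.80 ± 1.44 CPM against 3.23 ± 0.281 CPM (SD, n = 3). The log2 fold change was 0.84 (SE 0.19, adjusted p = 0.00457, edgeR). The deposited estimates of *Ptger1* were not whole numbers in 6 of 6 libraries, and its counts are uncertain. *Ptgfr*, the gene of the FP receptor for prostaglandin F2α, had 77, 65 and 84 counts in the WT libraries against 61, 165 and 105 in the knockout libraries. The *Aff3ir-ORF2-/-* values lay on both sides of WT, at 5.97 ± 2.76 CPM against 4.32 ± 0.569 CPM (SD, n = 3), with a log2 fold change of 0.47 (95% interval -0.32 to 1.25, adjusted p = 0.265, edgeR). Leaving out *Aff3ir-ORF2-/-* replicate 1 gave 0.75 and a call of higher (adjusted p = 0.0179, edgeR), and leaving out replicate 2 gave 0.07.

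*Hpgd*, which encodes the enzyme that starts the inactivation of prostaglandins, had 4, 5 and 4 counts in the WT libraries against 26, 55 and 43 in the knockout libraries. The knockout libraries were all above WT, but even their level was low beside the synthesis genes. Means were 0.248 ± 0.0312 and 2.24 ± 0.767 CPM (SD, n = 3). *Hpgd* had a log2 fold change of 3.14 (SE 0.40, 95% interval 2.25 to 4.02, adjusted p = 1.27e-04, edgeR), with 97.9% of all genes tested below it. It passed the filter on low counts only through its knockout libraries, so this p and this share are no separate support for the change. The ratio of summed counts, scaled by library size, was 9.22, with a counting interval of 5.20 to 17.8. The log2 ratio of *Ptgs2* over *Hpgd* counts was 11.4 ± 0.14 in WT and 7.20 ± 1.01 in *Aff3ir-ORF2-/-* (SD, n = 3), a difference of -4.18 without overlap (exact permutation p = 0.1, adjusted p = 0.133). With a pseudocount of 2 in place of 0.5 the difference was -3.85. At 4 to 5 WT counts of *Hpgd*, the small WT SD does not show how precise the ratio is. The macrophage marker sum was also higher in every *Aff3ir-ORF2-/-* library, and its part in the *Hpgd* result was not tested.

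**Figure D2:**
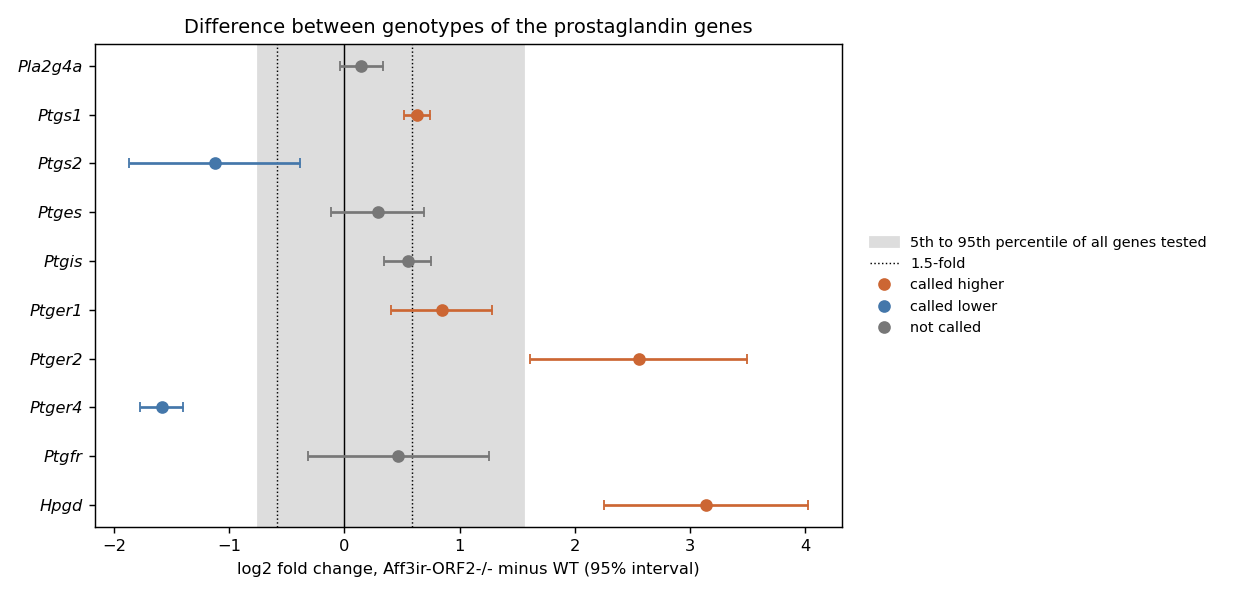
Log2 fold changes of the 10 genes, *Aff3ir-ORF2-/-* minus WT, with 95% intervals from edgeR. The grey band spans the 5th to 95th percentile of all genes tested, from -0.75 to 1.56, and dotted lines mark 1.5-fold. *Ptgs2* and *Ptger4* lay below the band and *Ptger2* and *Hpgd* above it.

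**Figure D3:**
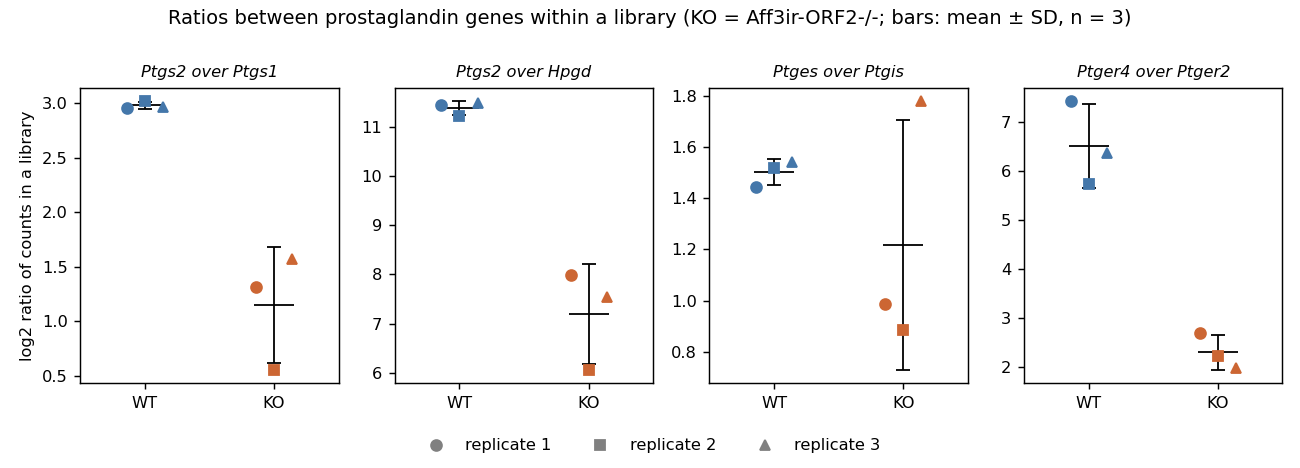
Log2 ratios of counts between pairs of the genes within each library, with mean and SD of 3 libraries, on separate axes that do not start at 0. Genotypes do not overlap for *Ptgs2* over *Ptgs1*, *Ptgs2* over *Hpgd* and *Ptger4* over *Ptger2*, and overlap for *Ptges* over *Ptgis*.

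Levels per kilobase of the longest GENCODE transcript allow the genes to be set beside one another. In WT, *Ptgs2* stood at 165 CPM per kilobase, rank 315 of 12790 tested genes with a length. *Ptgs1* at 32.5, *Pla2g4a* at 30.6, *Ptges* at 12.7, *Ptgis* at 7.77 and *Ptger4* at 7.09 followed. The remaining genes lay between 0.0827 for *Ptger2* and 0.688 for *Ptger1*. In *Aff3ir-ORF2-/-* MEFs *Ptgs2* was at 75.6 CPM per kilobase, rank 741, followed by *Ptgs1* at 50.3, *Pla2g4a* at 33.9, *Ptges* at 15.5, *Ptgis* at 11.4 and *Ptger4* at 2.36. Taken library by library, *Ptgs2* exceeded *Ptgs1* per kilobase in the WT libraries (162 to 168 against 32.2 to 32.9) and in *Aff3ir-ORF2-/-* replicates 1 and 3 (82.8 and 99.6 against 51.7 and 52.0). In *Aff3ir-ORF2-/-* replicate 2 it did not, with 44.5 CPM per kilobase for *Ptgs2* and 47.1 for *Ptgs1*. The share of the 10 genes' counts that came from *Ptgs2* was 71.2%, 71.5% and 71.1% in WT, and in the knockout it was 50.4%, 36.7% and 52.8%, each in the order of replicates 1, 2 and 3. The other 9 together held 292 to 299 CPM in WT and 341 to 396 CPM in *Aff3ir-ORF2-/-* libraries. Among the *Aff3ir-ORF2-/-* libraries, replicate 2 was the lowest for *Pla2g4a*, *Ptgs1*, *Ptgs2* and *Ptges* and the highest for 5 genes, *Ptgis*, *Ptger1*, *Ptger4*, *Ptgfr* and *Hpgd*. The coefficient of variation was larger in *Aff3ir-ORF2-/-* than in WT for 8 of the 10.

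The rest of the prostaglandin pathway was covered by a list of 33 genes, of which 30 were in the table and 24 were tested. Of these, 7 were called higher and 0 lower, beside 14.2% and 7.27% of all genes tested, 14 had an adjusted p under 0.05 at any fold, beside 56.8% of all genes tested, and the median log2 fold change was 0.09. *Hpgds*, the hematopoietic prostaglandin D synthase gene, had 2, 1 and 2 counts in the WT libraries against 167, 194 and 272 in the knockout libraries. The ratio of its summed counts, scaled by library size, was 122, with a counting interval of 52.1 to 378. *Tbxas1*, the thromboxane synthase gene, had 3, 4 and 8 against 24, 46 and 56 counts (log2 fold change 2.96). Like *Hpgds*, it passed the filter on low counts only through its knockout libraries, which raises the calls of higher. With at least 10 counts in every library, 21 genes of this list were tested. Of those, 5 were called higher and 0 lower, beside 11.4% and 6.92% of all genes then tested. *Akr1c18*, which encodes a steroid and prostaglandin reductase, had a log2 fold change of 2.34, and *Cbr2*, a carbonyl reductase gene, 2.61. Of the phospholipase genes, *Pla2g15* (1.03), *Pla2g7* (0.93) and *Pla2g4b* (0.64) were higher on the log2 scale. *Hpgds* and *Tbxas1* are known to be expressed in macrophages, whose marker sum was higher in every *Aff3ir-ORF2-/-* library. Its part in the result of these or any other gene of the list was not tested.

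The most abundant genes of that list that were not called had smaller changes. *Ptges3*, the gene of a cytosolic prostaglandin E synthase and chaperone partner, had 4616, 4770 and 4785 counts in the WT libraries against 4108, 3765 and 3928 in the knockout libraries (log2 fold change -0.34, adjusted p = 2.63e-04, edgeR). *Slco2a1*, which encodes the prostaglandin transporter, had 3010, 2899 and 2962 against 2417, 1632 and 2547 counts (-0.50, adjusted p = 0.0522, edgeR). *Akr1b3*, an aldose reductase gene, had a log2 fold change of 0.39, and *Ptgfrn*, which encodes a negative regulator of the FP receptor, 0.04. Of the other receptors, *Ptgir* (log2 fold change -0.21, adjusted p = 0.320, edgeR) and *Tbxa2r* (0.61, adjusted p = 0.127, edgeR) were tested and not called. *Ptger3* and *Ptgdr2* had at most 5 counts in any library and were not tested.

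Arachidonic acid also feeds the lipoxygenases. Of 16 leukotriene, lipoxygenase and epoxide hydrolase genes, 14 were in the table and 9 were tested, with 5 called higher and 1 lower, beside 14.2% and 7.27% of all genes tested, and a median log2 fold change of 0.95. *Alox5*, *Alox5ap* and *Cysltr1* passed the filter on low counts only through their knockout libraries, which raises the calls of higher and the median. With at least 10 counts in every library, 4 genes were tested, with 2 called higher and 0 lower. *Alox5*, the 5-lipoxygenase gene, had 1, 4 and 3 counts in the WT libraries against 32, 54 and 43 in the knockout libraries (log2 fold change 3.87). *Alox5ap*, the gene of its activating protein, had 8, 4 and 1 against 93, 217 and 143 counts (5.00). Both are known to be expressed in macrophages and other leukocytes. The macrophage marker sum was higher in every *Aff3ir-ORF2-/-* library, and its part in the result of these or any other gene of the list was not tested. *Cysltr1*, a leukotriene receptor gene, had 2, 0 and 0 against 14, 19 and 35 counts, a ratio of 32.9 with a counting interval of 8.75 to 277. The epoxide hydrolase genes *Ephx1* and *Ephx2* had log2 fold changes of 1.05 and 0.95. *Aloxe3*, an epidermal lipoxygenase gene, was lower (-1.59). *Lta4h*, the leukotriene A4 hydrolase gene, had a log2 fold change of -0.44, *Alox15* of 0.31 and *Mgst2* of -0.38, and these were not called.

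**Figure D4:**
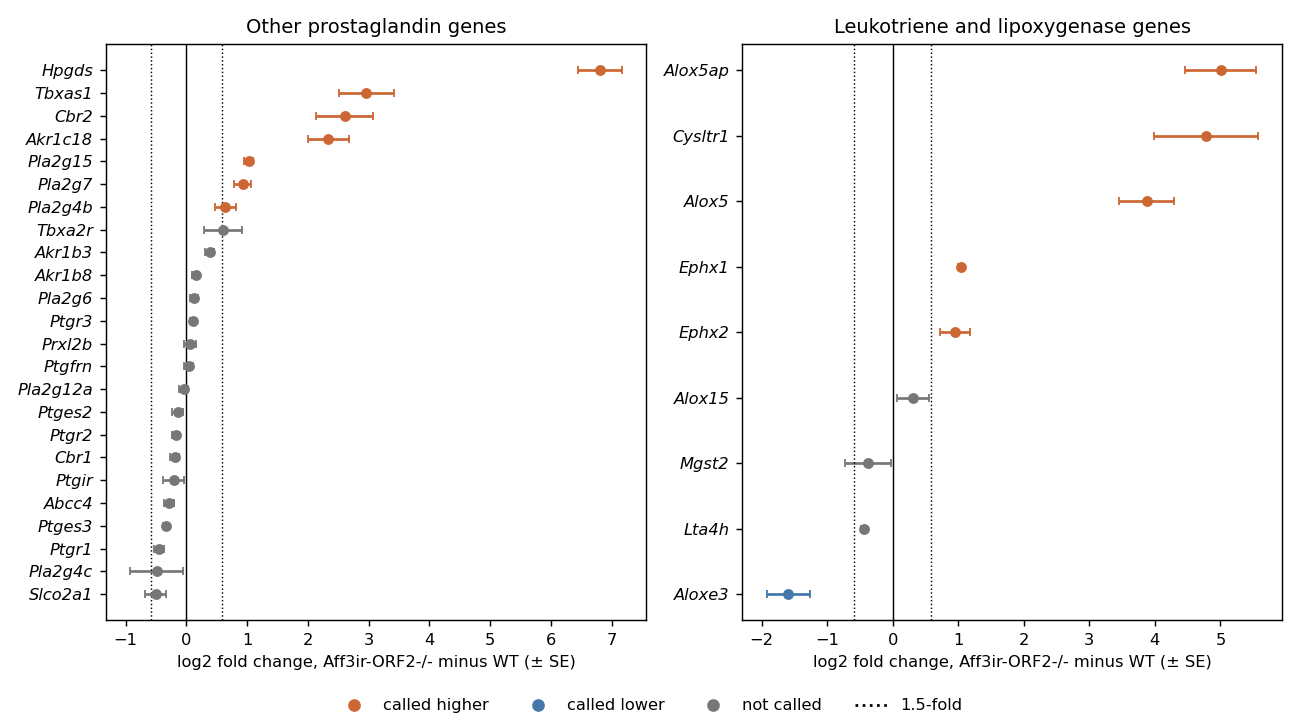
Log2 fold changes, *Aff3ir-ORF2-/-* minus WT, with standard errors from edgeR, of the 24 other prostaglandin genes tested (left) and the 9 leukotriene and lipoxygenase genes tested (right). Called genes are coloured and dotted lines mark 1.5-fold. *Hpgds* at 6.81 and *Alox5ap* at 5.00 were the highest of their lists.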

How the data were processed

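RNA-seq libraries of MEFs were grouped by the genotype in their titles, 3 WT and 3 *Aff3ir-ORF2-/-*. Per the paper's methods, paired-end reads from a DNBSEQ-G400 instrument were filtered with SOAPnuke, and the authors deposited estimated counts per gene, not normalized. The submitters' processing notes name the build mm8 without a role, and the aligner and counting tool are not given in the sources used here. Between 10.6% and 11.3% of values in a library were not whole, and all were rounded.

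Genes were filtered with filterByExpr (minimum count 10, minimum total 15), scaled by TMM and tested with edgeR 4.0.16 (quasi-likelihood, robust, two-sided) in R 4.3.3, with limma 3.58.1 and DESeq2 1.42.0 for alternatives. Calls needed an adjusted p under 0.05 and 1.5-fold. Standard errors are the log2 fold change over the square root of F. Within-library ratios used a pseudocount of 0.5 and the two-sided exact permutation test. The fit was tested on simulated data. The ratios of summed counts carry 95% counting intervals.

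The 10 genes, the other lists and the marker lists were chosen with earlier results of these data known. All 10 genes are named, with every called gene of the other prostaglandin, leukotriene and cAMP-responsive lists and up to 4 uncalled ones by mean count. *Ptgir*, *Tbxa2r*, *Ptger3* and *Ptgdr2* were named after their values were seen. A symbol of the lists was matched by an older name. Promoter sequences are from RefSeq, and their coordinates are those of GRCm38.p6, which is not stated to be the build behind the counts. Marker lists of fibroblasts, macrophages, smooth muscle, endothelial, epithelial, mast and platelet cells were summed without a test. Alternatives were other scalings, filters, tools and a 2-fold limit, the replicate number as a block, and leaving out each library. For the ratios a pseudocount of 2 was also used. A fit without robust estimation was added after the data were seen.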

Additional observations from a re-analysis of the deposited data

How the results depend on the processing

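Of 336 values recomputed under the alternatives, 321 met the following rules, 15 did not, and none reversed. A gene had to keep its direction and its side of an adjusted p of 0.05, whatever the fold. A number or percentage of calls had to stay within 1.5 times. A ratio had to keep its direction and, with 1 library left out, move by no more than the larger SD of the genotypes. *Ptgs2* lost its call with no filter (-1.14, adjusted p = 0.0521, edgeR) and with a replicate block (-1.20, adjusted p = 0.0789, edgeR), and the cause was not tested. Each of those left 1 of the 10 genes called lower in place of 2. The replicate numbers were not shown to pair the libraries: deviations of same-numbered libraries correlated at 0.0386, 0.0424 and 0.0145, although each library correlated best with its own number. The block changed no other call among the 10 genes. Leaving out 1 library in turn, the log2 fold change of *Pla2g4a* ranged from 0.069 to 0.24 that of *Ptgfr* from 0.066 to 0.75 and that of *Ptges* from 0.067 to 0.39, the other prostaglandin genes called lower numbered 0 to 1 (1 without *Aff3ir-ORF2-/-* replicate 3) and the cAMP-responsive genes called higher 1 to 3 (1 without *Aff3ir-ORF2-/-* replicate 2). Genes with at least 10 counts in every library left 8 of the 10, with 2 called higher, since *Ptger2* and *Hpgd* had fewer in WT, and 4 leukotriene genes, with 2 higher and 0 lower. A 2-fold limit called 2 of the 10 genes higher, 0 cAMP-responsive genes higher, and 8.38% and 2.42% of all genes tested higher and lower. Called higher were 5 of the 10 under upper quartile scaling and without *Aff3ir-ORF2-/-* replicate 1 or 3. At 2 to 9 WT counts, depth limits the size of the *Ptger2* and *Hpgd* changes.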

Other observations

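The EP2 and EP4 receptors act through cAMP, and 16 genes known to respond to cAMP, and to many other signals, were listed beside them. Of 15 tested, 2 were called higher and 4 lower in *Aff3ir-ORF2-/-* MEFs, against 14.2% and 7.27% of all genes tested, and the median log2 fold change was -0.39. *Nr4a1*, an orphan nuclear receptor gene of the immediate-early response, had 4242, 4214 and 3996 counts in the WT libraries against 1270, 974 and 1306 in the knockout libraries (log2 fold change -1.89, adjusted p = 1.44e-05, edgeR). Its WT and *Aff3ir-ORF2-/-* libraries did not overlap. *Fos*, which encodes an AP-1 subunit, had 211, 238 and 196 against 94, 86 and 117 counts (-1.20). *Areg*, the amphiregulin gene, had 54, 51 and 37 against 11, 10 and 19 counts (-1.90), and the clock gene *Per2* had a log2 fold change of -1.03. Called higher were *Crem*, which encodes a cAMP-responsive modulator (0.80), and the phosphodiesterase gene *Pde10a* (0.71). Of the most abundant that were not called, *Dusp1*, a phosphatase gene, differed by -0.59 on the log2 scale (adjusted p = 0.0932, edgeR), *Pde4d* -0.27, *Pde4a* -0.39 and *Per1* -0.40. Prostaglandins and cAMP were not measured.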
